A study of Mus musculus with 6 samples.

Results

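Of the 47729 genes in the tables of each mouse, 10 were examined here as endothelial and angiogenic genes, each found by its symbol in all 6 tables. They are *Pecam1*, *Cdh5* and *Vwf*, products of endothelial cells, the receptor genes *Kdr*, *Flt1*, *Tek* and *Tie1*, and the ligand genes *Vegfa*, *Vegfb* and *Angpt2*. RNA was from interscapular brown adipose tissue (BAT) of male wild-type C57BL/6J mice, of which 3 were fed a standard rodent diet (low-fat diet, LFD) and 3 a 45% high-fat diet (HFD) from 6 to 10 weeks of age. All mice of both diets had the same strain, genotype and sex, and the study picked the mice of each diet with greatest, medium and least fat mass, and the sources used here do not give the rank of each replicate number. Each mouse gave 1 library, so n = 3 per diet throughout, and where 3 values are given for a diet they stand in the order of replicates 1, 2 and 3.

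Endothelial cells line blood vessels, and BAT is among the most densely vascularized tissues, since its mitochondria need oxygen and fuel and its heat is carried off by the blood. Vascular endothelial growth factor (VEGF) A binds the receptor tyrosine kinases encoded by *Kdr* (VEGFR2, the main growth signal of endothelial cells) and *Flt1* (VEGFR1, which binds VEGF-A tightly and also exists as a soluble form), and VEGF-B binds the *Flt1* product. Angiopoietins bind the receptor encoded by *Tek* (TIE2), with which the *Tie1* product associates, and angiopoietin 2 is stored and released by endothelial cells themselves.

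Rounded counts per mouse were 17156991 to 21603487. *Ucp1*, the defining gene of brown adipocytes, had 2728, 4021 and 796 TPM (transcript level corrected for length and scaled to depth by RSEM) on HFD and 443, 11.03 and 76.0 TPM on LFD, so that LFD replicate 2 had little of it. Without this mouse, 0 of the 10 genes were called, beside 0 of the 18190 genes then tested. Their median log2 fold change was 0.61, beside -0.057 for all tested genes. All 10 still overlapped between diets in log2 CPM, while 2322 genes were lower and 1811 higher on HFD without overlap. Skeletal muscle RNA was also present, and 12 muscle markers summed to 21.3 to 331 TPM in HFD-fed and 1531 to 10270 TPM in LFD-fed mice. The part of muscle in the values of the 10 genes was not tested.

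None of the 10 genes passed the test for a difference between diets. A gene counted as called when its log2 fold change exceeded 1.5 in either direction at an adjusted p under 0.01. By edgeR's quasi-likelihood test, 0 of the 10 genes were called, beside 0% of the 17668 tested genes. Their adjusted p-values ran from 0.488 for *Vwf* to 0.981 for *Tek*. At an unadjusted p under 0.05 there were 0 of the 10 genes, beside 10.5% of all tested genes, and also 0 of the 10 at an adjusted p under 0.05. DESeq2 called 0 of the 10, beside 1.38% of its 29856 genes, and had 0 at an adjusted p under 0.05, beside 2.53%. At an unadjusted p under 0.05 it had 2 (*Tie1* and *Vwf*), beside 8.75%. DESeq2 gave an adjusted p to 20275 of its genes, the 10 among them. The shares at an adjusted p are therefore lower than among the genes that could be called. Fold changes are HFD over LFD, so a negative log2 fold change stands for a lower estimate in HFD-fed mice. Estimates were above 0 for 7 of the 10 genes, beside 45.6% of all tested genes, and below 0 for 3, beside 54.4%, and their median was 0.57 on the log2 scale, beside -0.048 for all tested genes. All 10 genes were within 1 of 0 on this scale. In log2 CPM (counts scaled by library size and TMM factor, on the log2 scale), the diets overlapped for all 10 genes, while 15.9% of tested genes did not overlap (9.23% lower and 6.72% higher on HFD). The intervals were wide, and for 8 genes they reached past the threshold of 1.5 in at least 1 direction, so the data of 3 mice per diet do not bound those differences below the threshold.

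**Figure D1:**
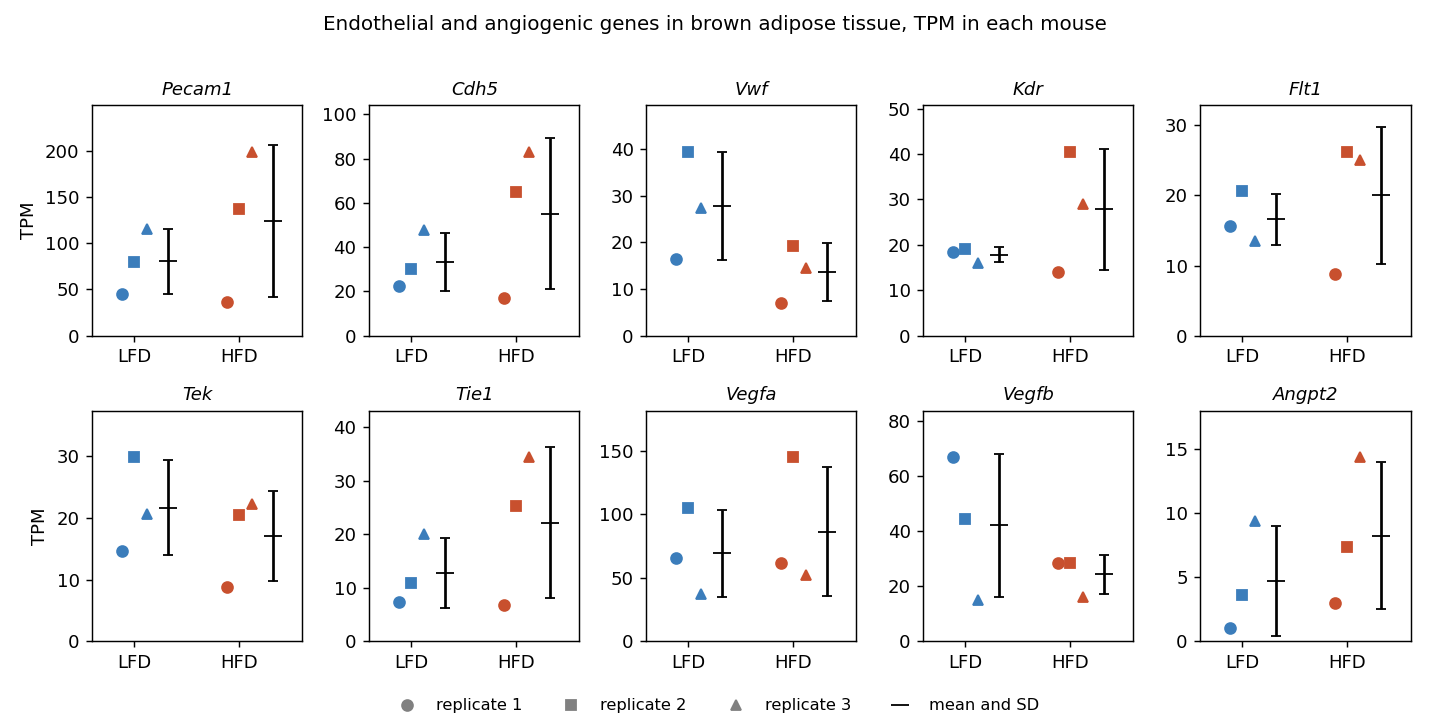
Each panel plots 1 gene, with TPM on the vertical axis and the diet on the horizontal axis; coloured symbols are single mice, shaped by replicate number, and the black bar is the mean with its SD (n = 3). HFD replicate 1 is the lowest of the 6 mice for all 7 endothelial genes and receptors (*Pecam1* to *Tie1*).

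**Figure D2:**
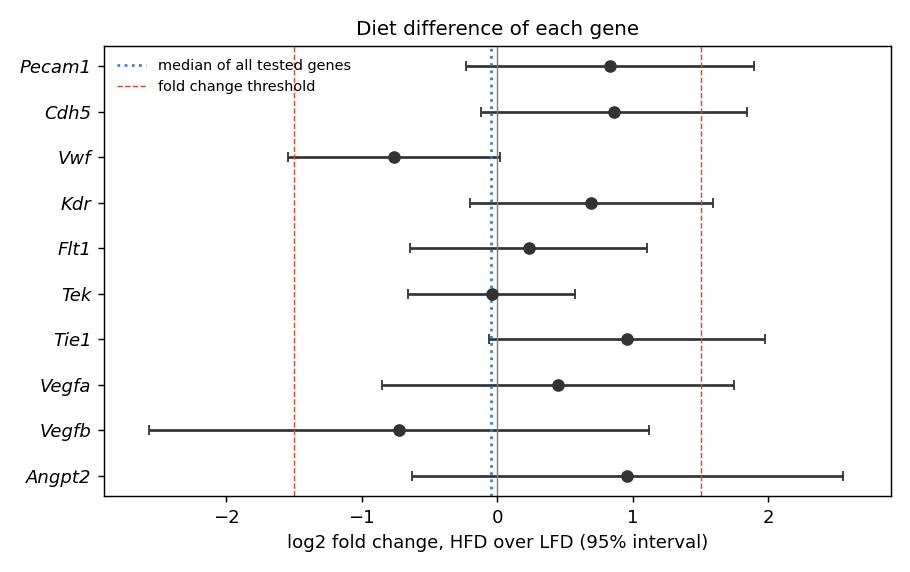
Points are the log2 fold changes, HFD over LFD, from edgeR with their 95% intervals for the 10 genes; dashed lines mark the threshold of 1.5 and the dotted line the median of all tested genes at -0.048. Every interval includes 0, and *Vegfb* has the widest, from -2.57 to 1.12.

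*Pecam1* (ENSMUSG00000020717, minus strand of chromosome 11 from 106654217 to 106750628 in GRCm38) encodes CD31, an adhesion protein at endothelial cell contacts. It had 36.4, 137 and 199 TPM on HFD, and 45.4, 80.2 and 116 TPM on LFD. HFD replicates 2 and 3 were above every LFD-fed mouse and HFD replicate 1 was below every one, so the diets overlapped. The means were 124 ± 82.3 TPM (SD, n = 3) and 80.5 ± 35.2 TPM (SD, n = 3), and the log2 fold change was 0.83 (95% interval -0.23 to 1.89, edgeR adjusted p = 0.586). In bulk tissue, a different number of cells of a type and a different amount of RNA per cell cannot be told apart.

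*Cdh5* (ENSMUSG00000031871, plus strand of chromosome 8 from 104101625 to 104144511) encodes VE-cadherin, the cadherin of endothelial junctions. Its values were 17.1, 64.9 and 83.2 TPM on HFD and 22.4, 29.9 and 47.9 TPM on LFD, the same arrangement of mice as for *Pecam1*. Its log2 fold change was 0.86 (95% interval -0.12 to 1.84, edgeR adjusted p = 0.532).

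*Vwf* (ENSMUSG00000001930, plus strand of chromosome 6 from 125546774 to 125686679) encodes von Willebrand factor, a clotting protein of endothelial cells and platelets. It was the endothelial gene with the lowest estimate. The HFD-fed mice had 6.96, 19.3 and 14.6 TPM, and the LFD-fed mice 16.5, 39.5 and 27.4 TPM. In TPM, HFD replicate 2 was above LFD replicate 1, which was the only overlap, and in log2 CPM it was above LFD replicate 3. The means were 13.6 ± 6.21 and 27.8 ± 11.5 TPM (SD, n = 3), and the log2 fold change was -0.76 (95% interval -1.54 to 0.018, edgeR adjusted p = 0.488). Platelet markers did not separate the diets: 5 of their 6 tested genes had estimates below 0, 0 of the 6 reached an unadjusted p under 0.05, and the summed level of all 8 was 160 to 483 TPM in HFD-fed and 63.6 to 490.0 TPM in LFD-fed mice, most of it *Pf4*. Their part in the *Vwf* values was not tested.

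The VEGF receptor genes were examined next, and their promoters are shown with those of the VEGF ligands, since *Flt1* with *Kdr* and *Vegfb* with *Vegfa* are also compared within each mouse. RefSeq promoter windows (GRCm38.p6) matched 6 of the 10 genes (*Kdr*, *Flt1*, *Tek*, *Tie1*, *Vegfa* and *Vegfb*). Each line gives the 250 bases before the annotated start, 5′ to 3′ on the minus strand, on which all 4 genes lie, with the letters GGAA (the core bound by ETS factors, which many endothelial genes use) in capitals on either strand, so that TTCC marks the opposite strand.
Kdr: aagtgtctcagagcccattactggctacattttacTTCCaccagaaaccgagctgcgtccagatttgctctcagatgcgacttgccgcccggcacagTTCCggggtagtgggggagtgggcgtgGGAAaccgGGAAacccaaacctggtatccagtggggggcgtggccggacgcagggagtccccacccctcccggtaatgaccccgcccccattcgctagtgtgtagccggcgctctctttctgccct
Flt1: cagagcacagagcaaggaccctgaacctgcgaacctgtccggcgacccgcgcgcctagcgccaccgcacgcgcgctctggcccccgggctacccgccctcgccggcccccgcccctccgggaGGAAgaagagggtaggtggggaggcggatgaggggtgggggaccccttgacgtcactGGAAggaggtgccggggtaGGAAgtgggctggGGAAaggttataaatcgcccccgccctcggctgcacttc
Vegfa: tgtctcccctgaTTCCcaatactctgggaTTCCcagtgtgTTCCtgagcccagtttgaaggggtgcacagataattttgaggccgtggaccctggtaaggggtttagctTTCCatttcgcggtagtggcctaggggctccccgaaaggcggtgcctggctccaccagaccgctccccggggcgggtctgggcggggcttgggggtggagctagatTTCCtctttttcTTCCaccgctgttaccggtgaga
Vegfb: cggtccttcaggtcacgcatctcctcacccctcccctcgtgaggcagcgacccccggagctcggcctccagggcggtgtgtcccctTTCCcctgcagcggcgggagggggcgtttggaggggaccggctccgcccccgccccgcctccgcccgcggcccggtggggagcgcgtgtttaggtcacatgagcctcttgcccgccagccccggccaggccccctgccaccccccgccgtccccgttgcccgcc
The windows are chr5:75978456-75978705 for *Kdr*, chr5:147726012-147726261 for *Flt1*, chr17:46032378-46032627 for *Vegfa* and chr19:6987652-6987901 for *Vegfb*. GGAA occurred 4 times in the *Kdr* window, 4 times in the *Flt1* window, 6 times in the *Vegfa* window and 1 time in the *Vegfb* window. This short word is held by 93.4% of the 32817 promoter windows in the table, with a median of 3 matches, so holding it is common. The word ACGTG (either strand, a form of the core of the hypoxia response element) was found 0 times in these 4 windows and in 16.6% of all windows. The other form of that core, GCGTG, was not counted over all windows. It can be read in the *Kdr* and *Vegfb* lines, and on the opposite strand, as CACGC, in the *Flt1* and *Vegfb* lines. The absence of ACGTG therefore does not mean that a window lacks the core. A second *Vegfa* window in the table, chr17:46025164-46025413 at a start inside the gene, held ACGTG 1 time and GGAA 2 times. The *Vegfa* window shown is the one at the 5′ end of the gene. A match is a description of the sequence, and no binding was measured.

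*Kdr* (ENSMUSG00000062960, chromosome 5 from 75932827 to 75978458) had 13.9, 40.5 and 29.0 TPM on HFD and 18.5, 19.0 and 16.1 TPM on LFD. The LFD-fed mice were close together, with 17.9 ± 1.55 TPM (SD, n = 3), and the HFD-fed mice lay on both sides of them with 27.8 ± 13.3 TPM (SD, n = 3). The *Kdr* fold change was 0.69 on the log2 scale (95% interval -0.20 to 1.59, edgeR adjusted p = 0.593). *Flt1* (ENSMUSG00000029648, minus strand of chromosome 5 from 147561604 to 147726011) had 8.77, 26.3 and 25.1 TPM on HFD and 15.6, 20.6 and 13.5 TPM on LFD. HFD replicate 1 was again the lowest and the other HFD-fed mice the highest. The log2 fold change of *Flt1* was 0.23 (95% interval -0.64 to 1.10, edgeR adjusted p = 0.907).

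*Tek* (ENSMUSG00000006386, plus strand of chromosome 4 from 94739289 to 94874976) had 8.77, 20.4 and 22.2 TPM on HFD and 14.6, 29.9 and 20.6 TPM on LFD. It had the estimate nearest to 0 among the 10 genes, with a log2 fold change of -0.041 and the narrowest interval, from -0.66 to 0.58 (edgeR adjusted p = 0.981). The sign depended on the scaling, and the estimate was 0.022 when the counts were scaled by library size only. *Tie1* (ENSMUSG00000033191, minus strand of chromosome 4 from 118471191 to 118490061) had 6.70, 25.3 and 34.4 TPM on HFD and 7.34, 10.9 and 20.02 TPM on LFD. Its mice stood in the same order as those of *Pecam1* and *Cdh5*, and the log2 fold change was 0.96 (95% interval -0.058 to 1.97, edgeR adjusted p = 0.501).

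*Vegfa* (ENSMUSG00000023951, chromosome 17 from 46016993 to 46032369) is made by adipocytes, muscle fibres and other cells around vessels. It had 61.5, 145 and 52.6 TPM on HFD and 65.5, 105 and 37.1 TPM on LFD. The diets overlapped, and in log2 CPM the HFD-fed mouse was higher in each of the 3 same-numbered pairs, by 0.038, 0.70 and 0.78. Its log2 fold change was 0.45 (95% interval -0.85 to 1.75, edgeR adjusted p = 0.862). *Vegfb* (ENSMUSG00000024962, chromosome 19 from 6982473 to 6987651), whose product is best known in tissues that burn fatty acids, had 28.4, 28.3 and 16.0 TPM on HFD. The LFD values were 66.7, 44.4 and 14.8 TPM in replicates 1, 2 and 3, so that LFD replicate 3 was the lowest of all 6 mice and the other LFD-fed mice the highest. The log2 fold change of *Vegfb* was -0.73 (95% interval -2.57 to 1.12, edgeR adjusted p = 0.839), and it turned to 0.28 without LFD replicate 1.

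*Angpt2* (ENSMUSG00000031465, minus strand of chromosome 8 from 18690263 to 18741562) had the fewest reads, with rounded counts of 126, 260 and 638 on HFD and 56, 123 and 300 on LFD. The same mice had 3.00, 7.35 and 14.4 TPM on HFD and 1.04, 3.62 and 9.39 TPM on LFD. The diets overlapped, with HFD replicate 3 and LFD replicate 3 highest, while each HFD-fed mouse was above the LFD-fed mouse of the same number, by 0.98, 1.07 and 0.89 in log2 CPM. The means were 8.23 ± 5.73 and 4.68 ± 4.28 TPM (SD, n = 3), and the log2 fold change was 0.96 (95% interval -0.63 to 2.55, edgeR adjusted p = 0.710). In a fit that blocks on the replicate number it was 0.99 (edgeR unadjusted p = 0.00408, adjusted p = 0.104). The labels give only replicate numbers and state no pairing. The block was taken up because same-numbered mice deviated together in these same data, so its p-values are descriptive. It also gave *Vwf* a log2 fold change of -0.81 (edgeR unadjusted p = 0.0124, adjusted p = 0.159), and *Vwf* was lower in the HFD-fed mouse of all 3 pairs. With the block, 2 of the 10 genes had an unadjusted p under 0.05, beside 17.5% of all tested genes. A higher HFD value in all 3 pairs was seen for 2 of the 10 genes (*Vegfa* and *Angpt2*), beside 21.1% of tested genes, and a lower one for 1 (*Vwf*), beside 21.3%.

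On the TPM scale, which corrects for transcript length and so allows genes to be compared, *Pecam1* had the highest mean over the 6 mice with 102 TPM. It was followed by *Vegfa* with 77.9, *Cdh5* with 44.2, *Vegfb* with 33.1, *Kdr* with 22.8, *Vwf* with 20.7, *Tek* with 19.4, *Flt1* with 18.3, *Tie1* with 17.4 and *Angpt2* with 6.46 TPM. Of the 9 neighbouring pairs in this order, only *Tie1* and *Angpt2* stood in the same order in 6 of 6 mice, with a mean log2 ratio of 1.62 ± 0.65 (SD, n = 6, exact sign-flip permutation p = 0.0313, two-sided, adjusted over the 9 pairs 0.281). The other 8 pairs changed places between mice, with exact permutation p-values of 0.125 to 0.938. Neighbours in an order taken from these same values are close by construction. These p-values therefore do not show whether genes further apart in the order differ in level.

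The genes fell into several patterns over the mice. The measure of likeness was the root mean square distance between 2 genes' log2 CPM, each centred on its mean over the 6 mice, so that 0 stands for the same course. *Cdh5* and *Tie1* were closest, at 0.0985, followed by *Pecam1* and *Tie1* at 0.125 and *Pecam1* and *Cdh5* at 0.137. *Kdr* and *Flt1* came next, at 0.28, and *Flt1* and *Tek* at 0.40. *Vegfb* and *Angpt2* were farthest apart, at 1.94, since *Vegfb* was at its highest and *Angpt2* at its lowest in LFD replicate 1. Among the 7 endothelial genes and receptors, *Vwf* was farthest from their mean course, at 0.64, and *Tek* closest, at 0.29. The mean course includes these genes themselves, and the distance is also small for a gene that varies little. *Tek* was at its highest in LFD replicate 2, at 0.34, where the mean course was at -0.18, so its small distance does not show a shared course. Outside the 10 genes, the 5 of 9870 genes with at least 10 CPM on average that lay closest to this mean course were *Pik3r3* (0.0792), *Hspa12b* (0.0976), *Fgd5* (0.106), *Dock6* (0.121) and *She* (0.125).

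**Figure D3:**
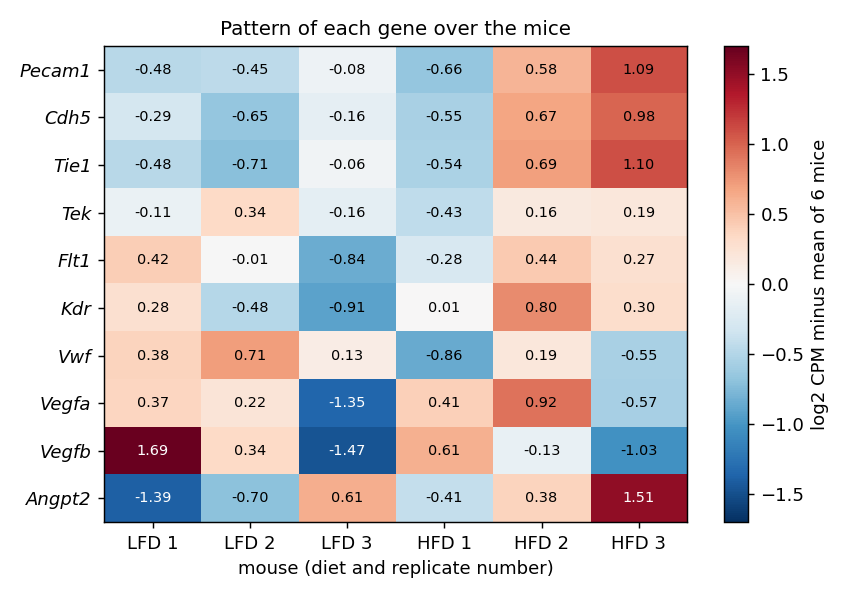
Rows are the 10 genes and columns the 6 mice; colour and number give log2 CPM minus the gene's mean over the 6 mice. *Pecam1*, *Cdh5* and *Tie1* share 1 course, with HFD replicates 2 and 3 above 0 and the other 4 mice below, while *Vegfb* runs from 1.69 in LFD replicate 1 to -1.47 in LFD replicate 3.

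For the endothelial genes and receptors, HFD replicate 1 stood apart from the other HFD-fed mice in TPM. It was the lowest of the 6 mice for 7 of these 7 genes in TPM, and for 3 of the 7 in log2 CPM. Over the genes of the whole series it did not stand apart, and HFD replicates 1 and 2 were the closest mice of a diet (chi-square per degree of freedom 71.7). HFD replicate 1 had the highest share of counts on mitochondrially encoded genes, 22.7%, where the other mice had 3.87% to 16.5%. The 16.5% was that of HFD replicate 2, which was lowest in TPM for 0 of the 7 genes. The part of the mitochondrial share in the low values of HFD replicate 1 was not tested. Without this mouse, 4 genes did not overlap between the diets in log2 CPM, all higher on HFD, beside 13.3% of the genes then tested. The mouse was singled out by its low values for these genes, so that share is not an even comparison and no conclusion is drawn. The log2 fold changes of the 4 genes were 1.18 for *Pecam1*, 1.19 for *Cdh5*, 0.85 for *Kdr* and 1.301 for *Tie1*. The edgeR adjusted p-values were then 0.388, 0.382, 0.606 and 0.377. Without HFD replicate 3 the log2 fold changes were smaller than with all mice, 0.42 for *Pecam1*, 0.54 for *Cdh5* and 0.60 for *Tie1*, and without HFD replicate 2 that of *Kdr* was 0.44.

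Ratios of partner genes within a mouse do not depend on how libraries are scaled, and 5 were compared by exact two-sided permutation tests, for which 3 mice against 3 can give no p below 0.1. The ratio of *Flt1* to *Kdr* in TPM was 0.630, 0.648 and 0.865 on HFD and 0.846, 1.09 and 0.841 on LFD, so that *Kdr* exceeded *Flt1* in 5 of the mice. The log2 ratio differed by -0.38 between the diet means (exact permutation p = 0.3). In rounded counts, which are not corrected for transcript length, this ratio was 0.606, 0.577 and 0.723 on HFD and 0.814, 1.03 and 0.772 on LFD. The diets then did not overlap, and the log2 difference was -0.45 (exact permutation p = 0.1, the smallest possible). *Tie1* to *Tek* was 0.764, 1.24 and 1.55 on HFD and 0.502, 0.365 and 0.973 on LFD, a difference of 1.01 in log2 (exact permutation p = 0.2). Only HFD replicate 1 lay below the highest LFD-fed mouse in this ratio. *Angpt2* to *Tek*, a ligand to its receptor, was 0.342, 0.3599 and 0.646 on HFD and 0.0712, 0.121 and 0.457 on LFD, a difference of 1.44 in log2 (exact permutation p = 0.3). In rounded counts the difference of this ratio was smaller, 1.05 in log2 (exact permutation p = 0.3). *Vegfb* to *Vegfa* was 0.462, 0.195 and 0.304 on HFD and 1.02, 0.422 and 0.399 on LFD, a difference of -0.88 (exact permutation p = 0.3). *Vegfa* exceeded *Vegfb* in every mouse but LFD replicate 1. For *Kdr* to *Pecam1* the difference was 0.098 (exact permutation p = 0.9), with ratios of 0.146 to 0.382 on HFD and 0.139 to 0.407 on LFD. Adjusted over the 5 ratios, these permutation p-values were 0.375 to 0.9.

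**Figure D4:**
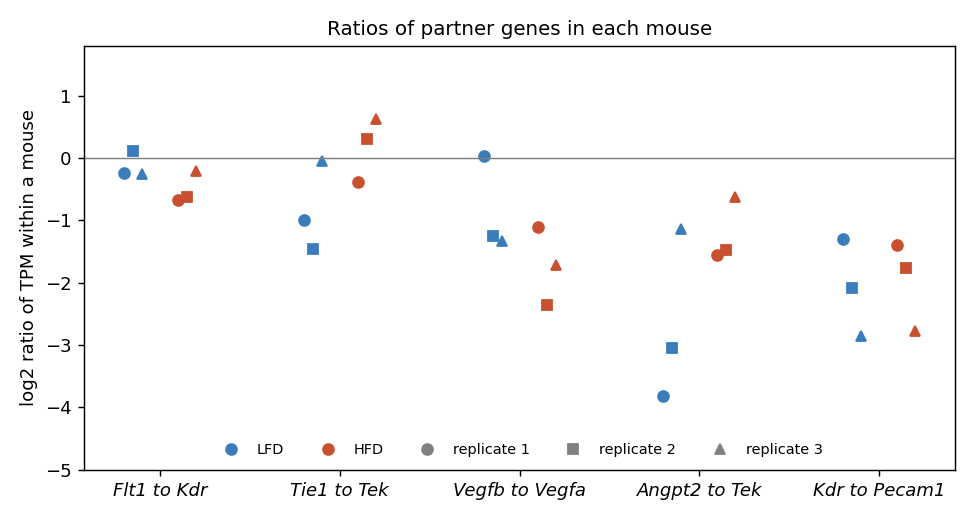
The vertical axis gives the log2 ratio of TPM of 2 genes within a mouse for the 5 gene pairs on the horizontal axis; blue is LFD, red HFD, and the symbol marks the replicate number. On this TPM scale the diets overlap in all 5 ratios, and *Angpt2* to *Tek* has the largest difference between diet means, 1.44.

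RSEM weights a gene's effective length by the estimated share of each of its transcripts, so a shift in this length follows a shift in those estimated shares. For *Angpt2* it was 1925, 2212 and 2566 bases on HFD and 3048, 2450 and 2676 bases on LFD, the widest range of the 10 genes, resting on as few as 56 counts. *Tek* ranged from 3079 to 4096 bases, *Vwf* from 3860 to 4779 and *Flt1* from 4723 to 5526, and the diets overlapped for all 4 of these genes. *Cdh5*, with lengths of 3912 to 3913 bases, was at the other end.

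Of 12 other genes of the VEGF and angiopoietin pathway, 11 were tested and 0 were called, with 5 estimates below and 6 above 0 and a median of 0.035. At an unadjusted p under 0.05 there were 2 lower and 2 higher genes, beside 6.62% and 3.86% of all tested genes. *Figf*, the gene of VEGF-D, had 5.56, 5.19 and 5.75 TPM on HFD and 9.90, 21.4 and 28.6 TPM on LFD, without overlap. Its log2 fold change was -1.48 (edgeR adjusted p = 0.177, and 0.00400 with DESeq2). *Nrp2*, a co-receptor for VEGF-C, had 20.3, 36.9 and 47.9 TPM on HFD and 7.01, 16.3 and 27.3 TPM on LFD. The log2 fold change of *Nrp2* was 1.34 (edgeR adjusted p = 0.225, and 0.0101 with DESeq2). In TPM the diets overlapped for *Nrp2*, and in log2 CPM they did not. *Nos3*, endothelial nitric oxide synthase, had 3.70, 6.56 and 6.18 TPM on HFD and 23.3, 26.0 and 8.67 TPM on LFD. The log2 fold change of *Nos3* was -1.77 (edgeR adjusted p = 0.341, and 0.0691 with DESeq2).

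All 16 other endothelial markers were tested and 0 were called, with 15 estimates above 0, a median of 0.62 and 5 genes higher at an unadjusted p under 0.05, beside 3.86% of all tested genes. The claudin of endothelial tight junctions, *Cldn5*, had 12.02, 29.5 and 47.5 TPM on HFD and 10.1, 11.7 and 15.6 TPM on LFD. The log2 fold change of *Cldn5* was 1.37 (edgeR adjusted p = 0.249, and 0.0385 with DESeq2). The adhesion protein gene *Icam2* had 8.53, 26.6 and 36.8 TPM on HFD and 4.62, 8.63 and 14.5 TPM on LFD. The log2 fold change of *Icam2* was 1.53 (edgeR adjusted p = 0.254, and 0.0232 with DESeq2). The sialomucin gene *Emcn* had a log2 fold change of 0.88 (edgeR adjusted p = 0.413, and 0.259 with DESeq2). In log2 CPM, *Cldn5* and *Icam2* were the only 2 of the 16 whose diets did not overlap, both higher on HFD, beside 6.72% of all tested genes. The summed level of the 16 markers was 230 to 917 TPM in HFD-fed and 306 to 556 TPM in LFD-fed mice, with HFD replicate 1 lowest.

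Of the 12 Notch, tip cell and arteriovenous genes, 0 were called, 9 had estimates above 0 and the median was 0.49. The lowest p-values were those of *Unc5b*, a netrin receptor of tip cells (log2 fold change 1.29, edgeR adjusted p = 0.377), *Nr2f2*, a transcription factor of veins (-0.56, edgeR adjusted p = 0.488), and *Hey1*, a Notch target (0.79, edgeR adjusted p = 0.509). Of the 14 genes of the hypoxia pathway, which acts on *Vegfa*, 0 were called, 8 had estimates above 0 and the median was 0.24. *Hif3a* had at most 0.30 TPM on HFD and 1.23 TPM on LFD (log2 fold change -3.04, edgeR adjusted p = 0.373), and the hypoxia-responsive genes *Ankrd37* and *Egln3* had log2 fold changes of 1.79 and 1.14 (edgeR adjusted p = 0.390 and 0.499). Of 7 angiogenesis inhibitors, 0 were called and the median was -0.41. They were led by *Serpinf1* (-0.60, edgeR adjusted p = 0.587), *Thbs1* (1.52, edgeR adjusted p = 0.662) and *Adamts1* (-0.41, edgeR adjusted p = 0.827).

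Markers of lymphatic vessels and of the mural cells around vessels were read beside these. Of 4 tested lymphatic markers, 0 were called, 3 had estimates below 0 and the median was -0.73. *Lyve1*, a hyaluronan receptor that macrophages can also carry, had 6.42, 20.5 and 14.7 TPM on HFD and 30.6, 41.1 and 44.3 TPM on LFD, with no overlap. The log2 fold change of *Lyve1* was -1.34 (edgeR adjusted p = 0.191, and 0.00953 with DESeq2). *Mmrn1* (0.86, edgeR adjusted p = 0.798) and *Prox1* (-0.83, edgeR adjusted p = 0.832) overlapped, and *Prox1*, the defining transcription factor, was at or below 0.74 TPM in every mouse. Of 8 mural cell markers, 0 were called, 5 had estimates above 0 and the median was 0.34, with *Rgs5* at 0.75 (edgeR adjusted p = 0.454), *Kcnj8* at 0.74 (0.533) and *Cspg4* at -0.81 (0.615).

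**Figure D5:**
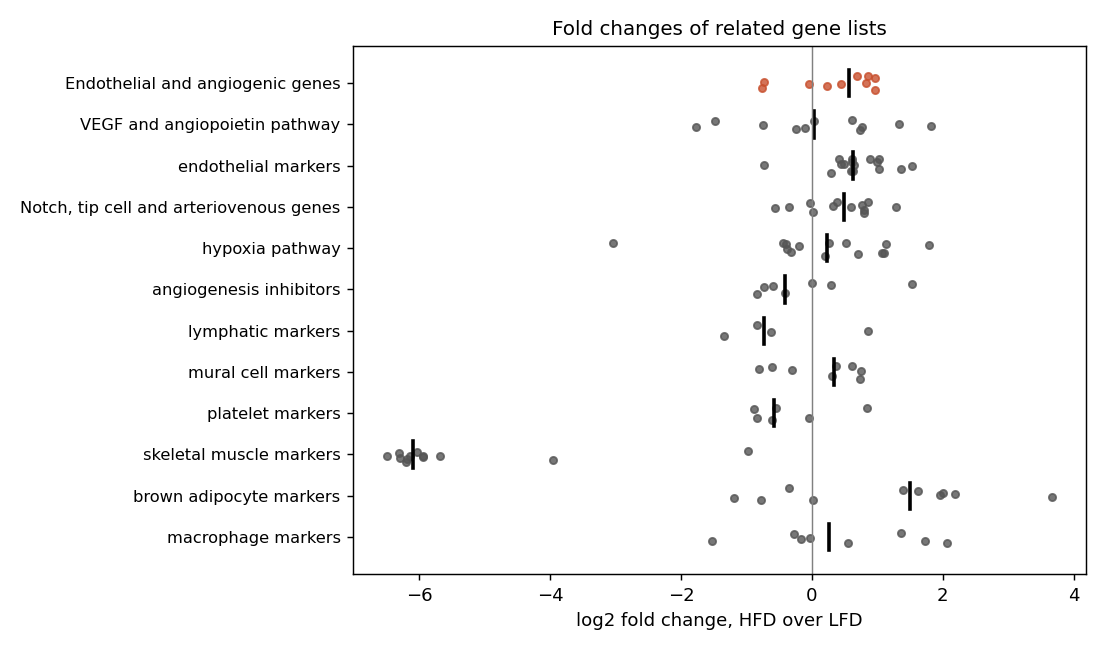
Each point is the log2 fold change, HFD over LFD, of 1 tested gene, and the black bar is the median of its row; the 10 endothelial and angiogenic genes are in red. The endothelial markers have a median of 0.62 and the skeletal muscle markers one of -6.09.

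Of the 12 skeletal muscle markers, edgeR called 0, while DESeq2 called 11, all lower on HFD, beside 1.38% of its genes. The diets did not overlap for these 11, beside 9.23% of tested genes that were lower without overlap. The 12 markers had a median log2 fold change of -6.09 and edgeR adjusted p-values from 0.170. With the replicate number as a block, 11 of the 12 had an edgeR adjusted p under 0.05, beside 1.04% of all tested genes. *Casq1*, *Ryr1* and *Mybpc2* led the list, with log2 fold changes of -5.94, -5.94 and -6.04 and edgeR adjusted p-values of 0.170, 0.173 and 0.173. Muscle fibres, which capillaries supply, also express *Vegfa* and *Vegfb*. The 10 brown adipocyte markers summed to 1878 to 6294 TPM on HFD and 854 to 3867 TPM on LFD, with 0 called, 7 estimates above and 3 below 0, and a median log2 fold change of 1.51. On LFD most of the sum was *Adipoq* (1823, 2015 and 470 TPM) and *Plin1* (1012, 786 and 173 TPM), so the sums do not follow brown adipocytes alone. In log2 CPM, *Ucp1* was the only 1 of the list whose diets did not overlap, higher on HFD, beside 6.72% of all tested genes. The lowest p-values were those of *Dio2* (2.00), *Ucp1* (3.67) and *Ppargc1a* (1.39), with edgeR adjusted p = 0.476, 0.480 and 0.508. The 3 below 0 were *Adipoq* (-1.19), *Plin1* (-0.78) and *Adrb3* (-0.36), adipocyte genes named after their values were seen. The 8 macrophage markers summed to 1437 to 3126 TPM on HFD and 399 to 3466 TPM on LFD. Of these, 0 were called, with 4 estimates in each direction. *Cd163* (-1.53), *Fcgr1* (2.06) and *Cd68* (1.72) had edgeR adjusted p = 0.241, 0.373 and 0.413. With DESeq2 the adjusted p-values of these genes were 0.0157, 0.0546 and 0.114. No list had a marker at 0 TPM in all mice. Except for the muscle list, DESeq2 also called 0 genes of each list at the same thresholds.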

How the data were processed

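Libraries from BAT, depleted of ribosomal RNA, were read from 1 end. Per the labels and the study's methods, the authors trimmed adapters (Trimmomatic 0.36) and used RSEM 1.3.0 with the Ensembl 84 annotation of GRCm38. They deposited expected counts, not normalized and with reads shared between similar genes, and TPM, scaled by the effective length in bases that the files also give. Expected counts were rounded (17156991 to 21603487 per mouse) and compared in R 4.3.3 with edgeR 4.0.16 (quasi-likelihood test, TMM, edgeR's filter on low counts, Benjamini-Hochberg adjustment over 17668 genes). DESeq2 1.42.0 and limma 3.58.1 served as alternatives. Thresholds were those of the study. Log2 CPM used a prior count of 2. Intervals cover 95% and come from the quasi-likelihood F statistic. Replicates were separate mice, and chi-square per degree of freedom between mice of a diet was 71.7 to 558, so no library was a repeat. Genes that share a symbol with a second gene (1 lymphatic marker) were left out. The fit was tested on simulated counts.

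Deviations from the diet means correlated across genes in same-numbered mice with r of 0.498, 0.229 and 0.522, and in the other pairs with -0.528 to 0.0532, so the replicate number was treated as a pairing in an alternative fit. Deviations within a diet sum to 0, so these correlations are not independent of each other. The labels state no pairing, and this one was chosen from the data that the fit then tested. Named genes were the 10 genes and, of each list, the 3 with the lowest unadjusted p. Members and lists were chosen with earlier results of these data known. Positions are those of GENCODE M21 on GRCm38. Alternatives were RLE or no normalization factors, mitochondrially encoded genes left out, a minimum of 10 counts in every mouse, no filter, DESeq2, the replicate block, log2(TPM + 1) with limma, rounded counts in place of TPM in the ratios, and each mouse left out.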

Additional observations from a re-analysis of the deposited data

How the results depend on the processing

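Under the 8 alternatives other than leaving out a mouse, and the adjusted p threshold of 0.05, 0 of the 10 genes were called, and the smallest adjusted p of any of them was 0.104 (*Angpt2*, edgeR with the replicate block, where the 10 genes had a median log2 fold change of 0.59). The pairing changed no call, and 3 of the 10 estimates stayed below 0 with it. The median of the 10 genes lay between 0.35 and 0.69. Only *Tek* changed sign, to 0.022 with library size only. On the log2(TPM + 1) scale the median of all genes shifted by -0.16 from that of the edgeR fit, and 79.9% in place of 63.2% of genes at an unadjusted p under 0.05 had estimates below 0, so TPM and CPM estimates are to be read relative to that shift.

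With 1 mouse left out, 0 genes were called, the count with estimates below 0 ranged from 2 to 4, the count without overlap from 0 to 4 (4 without HFD replicate 1, where fewer mice overlap less easily), and the median from 0.26 to 0.67. *Flt1* ranged from -0.048 (without LFD replicate 3) to 0.54, *Tek* from -0.14 to 0.13 (above 0 without HFD replicate 1 or LFD replicate 2) and *Vegfb* from -1.21 to 0.28 (without LFD replicate 1). *Angpt2* was 1.72 without LFD replicate 3 and 0.29 without HFD replicate 3, and *Vegfa* 0.076 without HFD replicate 2 and 0.76 without HFD replicate 3. *Kdr* ranged from 0.44 (without HFD replicate 2) to 1.08 (without LFD replicate 1), *Pecam1* from 0.42, *Cdh5* from 0.54 and *Tie1* from 0.60 (without HFD replicate 3) to 1.18, 1.19 and 1.301 (without HFD replicate 1). The difference in log2 *Kdr* to *Pecam1* ranged from -0.29 to 0.50. The other 4 ratios kept their direction, with *Angpt2* to *Tek* from 0.87 (without LFD replicate 1) to 2.21 (without LFD replicate 3, exact permutation p = 0.1, the smallest possible), *Vegfb* to *Vegfa* from -1.19 (without HFD replicate 1) to -0.44 (without LFD replicate 1), *Tie1* to *Tek* from 0.70 to 1.41 and *Flt1* to *Kdr* from -0.52 to -0.26. With the replicate block the mean ratio differences are equal to the unpaired ones by construction, and 3 pairs can give no exact permutation p below 0.25. With rounded counts in place of TPM, all 5 ratios kept their direction, and the diets no longer overlapped for *Flt1* to *Kdr* (-0.45). The lowest count of the 10 genes was 56 (*Angpt2*).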
